A study of Mus musculus with 6 samples.

Results

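The transcripts of 6 scavenger receptors (Marco, Msr1, Cd36, Scarb1, Olr1 and Cd163) and of the mannose receptor Mrc1 were followed in alveolar macrophages with or without Cre-driven deletion of floxed Car4. These 7 genes were picked by symbol from the 46078 gene rows of the count table, each symbol stood on 1 row, and all 7 passed the filter on low counts that left 15147 genes to test. The cells were sorted from the lungs of untreated mice. All animals were homozygous for floxed alleles of Car4, the gene of membrane-anchored carbonic anhydrase 4. The 3 Car4fl/fl-CD11cCre libraries, here the Cre libraries, came from mice that also carried a Cre recombinase under CD11c control. The 3 Car4fl/fl libraries, from mice without Cre, were the controls. The sample titles give a genotype and a replicate number, and do not say how many mice each library holds. CD11c is present on alveolar macrophages and on other myeloid cells, so deletion need not have been restricted to the sorted cells. No group carried the Cre with intact Car4, so Cre itself and loss of Car4 cannot be told apart. The labels used here give no age or sex.

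Scavenger receptors are cell surface proteins that bind polyanionic and modified ligands, such as oxidised lipoproteins, bacterial surfaces, dying cells and inhaled particles, and carry them into the endocytic pathway. They are grouped by structure rather than by ancestry. Marco and Msr1 belong to class A, with a collagenous stalk, Cd36 and Scarb1 to class B, with a looped ectodomain held by a pair of membrane passes, Olr1 is a C-type lectin of class E, and Cd163 is built of cysteine-rich scavenger repeats. The mannose receptor binds mannose- and fucose-bearing glycans and is, like Marco, a standard surface protein of resident alveolar macrophages.

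Promoter sequences from RefSeq (GRCm38.p6) were matched for Marco, Cd36, Olr1, Cd163 and Mrc1. The 250 bases before the start site are printed for Marco, Cd36 and Olr1, the members whose window held no annotated exon, to set a pair of genes whose Cre and control libraries did not overlap beside one whose libraries did. Each reads 5′ to 3′ on the minus strand of the gene. Capitals mark matches to 10 motifs searched on both strands.
Marco, chr1:120505025-120505274: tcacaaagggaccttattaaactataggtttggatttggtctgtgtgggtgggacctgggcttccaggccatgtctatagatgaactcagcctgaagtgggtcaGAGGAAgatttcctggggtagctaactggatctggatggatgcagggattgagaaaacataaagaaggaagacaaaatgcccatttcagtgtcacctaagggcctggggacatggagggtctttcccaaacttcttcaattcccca
Cd36, chr5:17835897-17836146: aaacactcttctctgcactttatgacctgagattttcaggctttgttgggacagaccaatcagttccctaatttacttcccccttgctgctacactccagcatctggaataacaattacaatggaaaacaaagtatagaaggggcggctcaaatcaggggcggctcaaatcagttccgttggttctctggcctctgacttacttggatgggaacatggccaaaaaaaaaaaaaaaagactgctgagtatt
Olr1, chr6:129507166-129507415: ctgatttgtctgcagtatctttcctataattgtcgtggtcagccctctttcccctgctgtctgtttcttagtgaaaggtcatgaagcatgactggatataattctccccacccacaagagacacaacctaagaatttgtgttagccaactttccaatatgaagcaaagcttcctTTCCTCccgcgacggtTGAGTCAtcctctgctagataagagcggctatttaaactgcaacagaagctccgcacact

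The Marco window held the core GAGGAA, the letters bound by the myeloid factor PU.1, once on the gene's own strand, 146 to 141 bases before the start. The Olr1 window held the same core on the opposite strand, 76 to 71 bases before the start, and the AP-1 motif TGANTCA 60 to 54 bases before it. The Mrc1 window held the PU.1 core 3 times on the opposite strand. The PU.1 core was found in 3 of the 5 member windows and in 23.3% of 32851 RefSeq windows of the same length, and the AP-1 motif in 1 of 5 and in 6.75%. The other 8 motifs were in none of the 5 windows (10.2% of all windows held the antioxidant element core TGACNNNGC, 6.02% the E-box CACGTG, 3.25% the M-box TCATGTG, 9.56% the C/EBP motif TTGCNNAA and 3.81% the MAF motif TGCTGAC). The 3 longer motifs, for NF-kB and for the direct repeats bound by PPAR (DR1) and LXR (DR4), were in 1.21%, 0.0335% and 0.0152% of all windows. None of these matches overlapped another. The Cd36 window lay within the annotated span of the gene, which reaches further upstream. A match describes the letters of the window and is not a binding site.

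On GRCm38 the genes lay on 5 chromosomes. Marco (ENSMUSG00000026390) spans chr1:120474538-120505024 on the minus strand and Msr1 (ENSMUSG00000025044) spans chr8:39581685-39642673 on the minus strand. Cd36 (ENSMUSG00000002944) and Scarb1 (ENSMUSG00000037936) share chromosome 5, at chr5:17781690-17888801 and chr5:125277087-125341094, both on the minus strand. Olr1 (ENSMUSG00000030162) and Cd163 (ENSMUSG00000008845) share chromosome 6, at chr6:129485244-129507165 on the minus strand and chr6:124304656-124330527 on the plus strand. Mrc1 (ENSMUSG00000026712) spans chr2:14229392-14332057 on the plus strand and hosts Mir511 on the same strand, outside its exons, as Scarb1 hosts the predicted gene Gm42633. No annotated gene shared exon bases with any of the 7.

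The libraries held between 53824475 and 65443314 counts. Values are CPM, counts relative to the TMM-scaled library total, at which 3 counts equal 0.0465 to 0.0557 CPM. Car4 was at 40.2, 46.9 and 36.3 CPM in the Cre libraries and at 499, 385 and 270 CPM in the controls, and was called lower (log2 fold change -3.23 ± 0.22 SE, adjusted p 0.0047, edgeR quasi-likelihood with Benjamini-Hochberg adjustment). Cre library 1 stood apart from the other Cre libraries: on the first principal component, with 47% of the variance, it lay at 0.444, against 39.8 and 39.4 for Cre libraries 2 and 3 and -29.7 to -22.5 for the controls. The results for the 7 receptors are therefore also given without it, a choice made after the data were seen. The defining genes of alveolar macrophages were present, with Siglecf at 547 ± 71.7 CPM in the Cre libraries and 708 ± 44.5 CPM in the controls, and the lineage factor Pparg at 256 ± 3.7 and 267 ± 14 CPM (SD, n = 3 each). Beyond genotype and the untreated state the labels do not describe the mice, so the p-values measure the spread between these libraries.

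Over all tested genes, edgeR called 2 genes at an adjusted p under 0.05 (0.0132%), Plcb4 higher and Car4 lower (0.0066% each), and 0 of the 7 receptors. At an unadjusted p under 0.05, 3 receptors were above control (Marco, Msr1 and Cd36), against 6.54% of all tested genes, and 1 was below (Cd163), against 6.28%, so 4 of 7 in either direction against 12.8%. The Cre and control libraries did not overlap for 4 receptors with the Cre libraries on top (Marco, Msr1, Cd36 and Mrc1), against 8.63% of tested genes, and for 1 with the Cre libraries underneath (Cd163), against 9.22%, so 5 of 7 in either direction against 17.9%. DESeq2 called 4 of the 7, against 3.88% of the genes it tested. The fitted value was above control for 5 of 7 receptors and for 49.4% of tested genes. The median log2 fold change of the 7 genes was 0.09, against -0.0019 over all tested genes. The genes were chosen with earlier results of these data known, so these counts describe the 7 genes and do not set them apart from others. In a bulk library, fewer cells of a kind and less RNA per cell cannot be told apart.

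**Figure D1:**
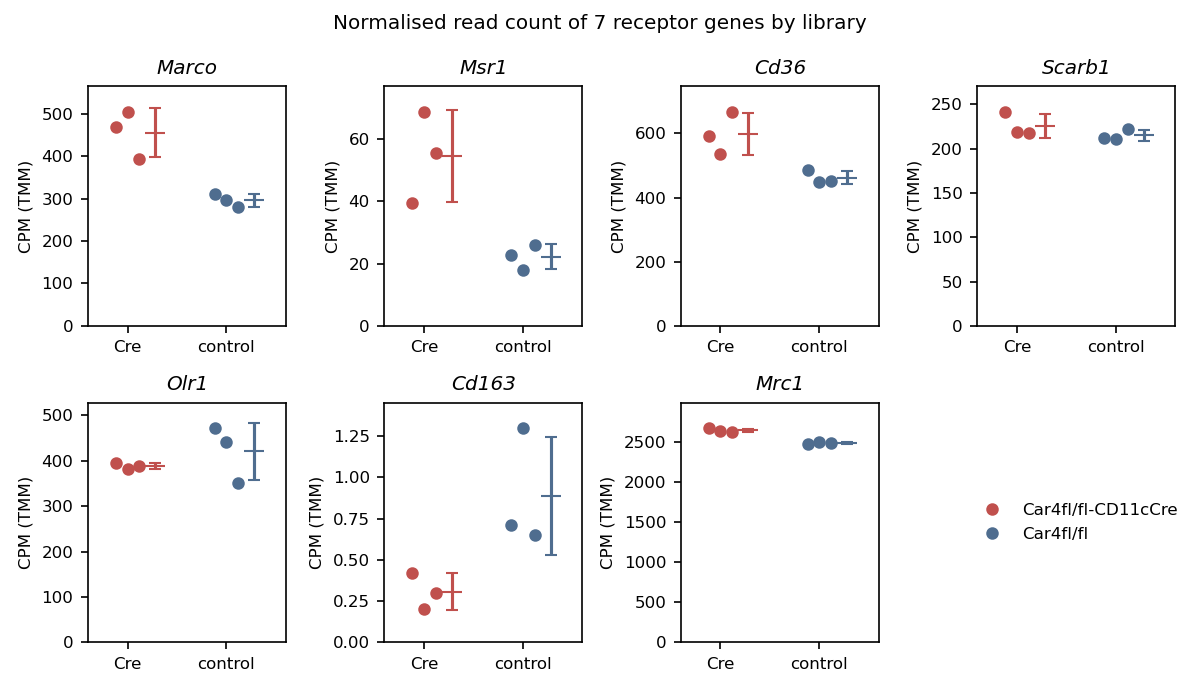
Normalised read count (CPM, TMM-scaled) of each of the 7 genes in the 3 Cre libraries (left, red) and the 3 control libraries (right, blue), in replicate order 1 to 3; the cross with whiskers is the mean ± SD. Marco, Msr1, Cd36 and Mrc1 lie above control in all 3 Cre libraries, Cd163 lies below, and Scarb1 and Olr1 overlap.

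Marco, the class A receptor with which alveolar macrophages take up unopsonised bacteria and particles, was at 469, 505 and 393 CPM in the Cre libraries and at 311, 296 and 280 CPM in the controls. Every Cre library was above every control, with library 2 highest and library 3 lowest among the Cre libraries. The means were 455 ± 57 CPM in Cre and 296 ± 15.5 CPM in control libraries (SD, n = 3 each), a log2 fold change of 0.62 ± 0.09 (SE) or 1.54-fold, with a 95% interval of 1.32- to 1.79-fold that is not adjusted for the number of genes. Marco ranked 14 of the tested genes by p (p 0.000199, adjusted p 0.146, edgeR quasi-likelihood) and did not pass. When single libraries were left out the log2 fold change ranged from 0.54 to 0.72. DESeq2 called it (adjusted p 8.7e-08), and so did edgeR when no genes were filtered out (adjusted p 0.00243). These fits called 2.37% and 1.23% of genes higher.

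Msr1, scavenger receptor A, which binds acetylated and oxidised low-density lipoprotein, was at 39.3, 68.6 and 55.4 CPM in the Cre libraries and at 22.8, 18 and 25.9 CPM in the controls. The groups did not overlap, and the lowest Cre value was that of library 1. The means were 54.4 ± 14.7 and 22.2 ± 4.01 CPM in Cre and control libraries (SD, n = 3 each), a log2 fold change of 1.29 ± 0.21 (SE) or 2.45-fold, with a 95% interval of 1.76- to 3.42-fold. Msr1 ranked 22 by p and did not pass (adjusted p 0.146, edgeR quasi-likelihood). Without Cre library 1 it passed (log2 fold change 1.48 ± 0.16 SE, adjusted p 0.00656, edgeR quasi-likelihood). That library was singled out after the data were seen and holds the lowest Msr1 value of the Cre libraries. Leaving it out raises the fitted difference by construction, so no conclusion is drawn from this pass. The fit without that library called 1.59% of genes higher and 0.237% lower, and none of the 7 receptors other than Msr1. DESeq2 called it with all libraries (adjusted p 6.19e-09), and so did edgeR with no filter (adjusted p 0.00118).

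Cd36, the class B receptor for oxidised lipoproteins and long-chain fatty acids, was at 591, 536 and 667 CPM in the Cre libraries and at 486, 450 and 450 CPM in the controls. All Cre libraries were above all controls, but the order among them differed from that of Marco and Msr1, since library 2 was the lowest of the Cre libraries for Cd36 and the highest for both class A genes. The means were 598 ± 66 and 462 ± 20.9 CPM in Cre and control libraries (SD, n = 3 each), a log2 fold change of 0.37 ± 0.09 (SE) or 1.29-fold, with a 95% interval of 1.13- to 1.49-fold. It did not pass (p 0.00263, adjusted p 0.161, edgeR quasi-likelihood), while DESeq2 (adjusted p 0.00197) and edgeR without a filter (adjusted p 0.0299) called it.

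Scarb1, the class B receptor that takes cholesteryl ester from high-density lipoprotein, was at 242, 219 and 217 CPM in the Cre libraries and at 212, 211 and 222 CPM in the controls. Control library 3 lay above Cre libraries 2 and 3, so the groups overlapped. The means were 226 ± 13.7 and 215 ± 5.85 CPM in Cre and control libraries (SD, n = 3 each). The fitted difference was 0.07 ± 0.06 on the log2 scale (SE; adjusted p 0.698, edgeR quasi-likelihood), and its interval ran from 0.955- to 1.16-fold. For Cd36, the other class B gene, the interval was 1.13- to 1.49-fold, and the difference between the 2 genes was not tested.

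Olr1, the lectin-like receptor for oxidised low-density lipoprotein, was at 395, 382 and 388 CPM in the Cre libraries and at 471, 441 and 351 CPM in the controls. The Cre values lay between the lowest and the middle control, and the control libraries were more spread, with a coefficient of variation of 1.69% in the Cre libraries and 14.9% in the controls. The means were 388 ± 6.54 and 421 ± 62.5 CPM in Cre and control libraries (SD, n = 3 each). The fitted difference was -0.12 ± 0.10 on the log2 scale (SE; adjusted p 0.714, edgeR quasi-likelihood), and its interval ran from 0.781- to 1.09-fold.

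Mrc1, the mannose receptor, was the most abundant of the 7 and the least variable, at 2670, 2630 and 2629 CPM in the Cre libraries and at 2470, 2505 and 2487 CPM in the controls. All Cre libraries were above all controls, by little. The means were 2643 ± 23.8 and 2487 ± 17.1 CPM (SD, n = 3 each), a ratio of 1.06, and the gap between the group means was larger than the SD of either group. The edgeR quasi-likelihood test, whose variance is moderated over all genes, did not call it (adjusted p 0.594), with an interval from 0.97- to 1.16-fold. DESeq2 gave an adjusted p of 0.383.

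Cd163, the receptor for haptoglobin-haemoglobin complexes, was the lowest of the 7, with 25, 13 and 16 counts in the Cre libraries and 43, 78 and 37 counts in the controls. These are 0.423, 0.201 and 0.297 CPM in the Cre libraries and 0.714, 1.3 and 0.651 CPM in the controls, and every Cre library was below every control. From counting error alone, the 95% exact Poisson interval was 16.2 to 36.9 counts for the highest Cre library and 26.1 to 51 counts for the lowest control, which overlap. The log2 fold change was -1.53 ± 0.39 (SE), or 0.346-fold with an interval from 0.184- to 0.651-fold, and it did not pass (adjusted p 0.185, edgeR quasi-likelihood). DESeq2 called it (adjusted p 0.0479, against 1.51% of genes called lower) and edgeR without a filter did not (adjusted p 0.0546).

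**Figure D2:**
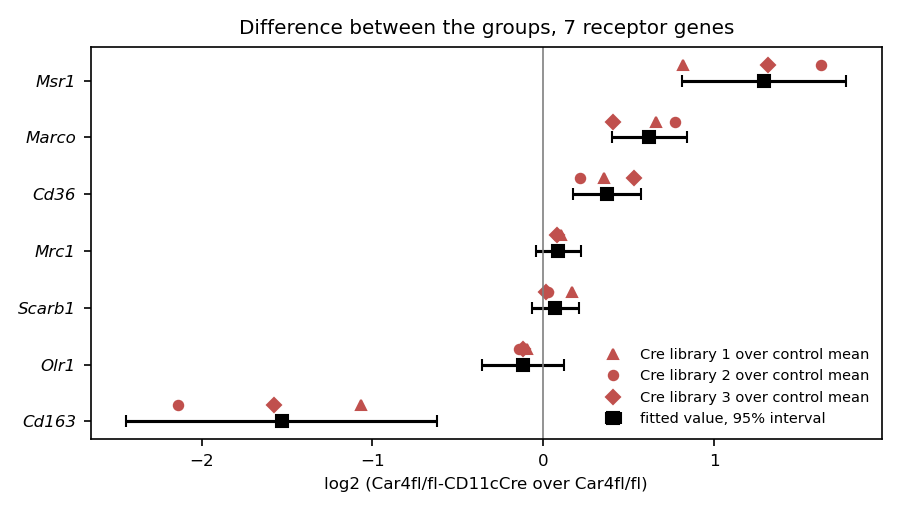
Fitted log2 fold change (Cre over control, edgeR) of each of the 7 genes as a black square with its 95% interval, and the log2 ratio of each Cre library to the control mean as a red triangle, circle or diamond for libraries 1, 2 and 3. The 3 Cre libraries lie on the same side of 0 for every gene, and the intervals of Mrc1, Scarb1 and Olr1 cross 0.

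The size of the difference in a given Cre library was not shared between receptors. Over the control mean, Cre libraries 1, 2 and 3 were at log2 ratios of 0.66, 0.77 and 0.41 for Marco. For Msr1 the same ratios were 0.82, 1.63 and 1.32, and for Cd36 they were 0.35, 0.21 and 0.53. Cre library 1, which lay nearest to the controls on the first principal component, held a Marco ratio between those of the other Cre libraries and the smallest Msr1 ratio. Without that library the log2 fold changes were 0.60 for Marco (adjusted p 0.0514), 0.37 for Cd36 (adjusted p 0.139) and -1.84 for Cd163 (adjusted p 0.106), and those of Scarb1, Olr1 and Mrc1 were 0.01, -0.14 and 0.07 (edgeR quasi-likelihood).

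To set the receptors side by side, CPM was divided by the length of the union of annotated exons (1925 bases for Marco to 8500 bases for Scarb1). Mrc1 led in both groups, at 415 ± 3.73 CPM per kilobase in the Cre libraries and 390 ± 2.69 in the controls. Marco followed at 237 ± 29.6 in Cre and 154 ± 8.06 in control libraries, then Cd36 at 167 ± 18.4 and 129 ± 5.81, and Olr1 at 109 ± 1.83 and 118 ± 17.5. Scarb1 came next at 26.6 ± 1.61 in Cre and 25.3 ± 0.688 in control libraries, then Msr1 at 8.58 ± 2.32 and 3.5 ± 0.632, and Cd163 was last at 0.0562 ± 0.0203 and 0.162 ± 0.0652 (SD, n = 3 each, same unit). The order was the same in both groups. Neighbours in it had library values that did not overlap, except Cd36 and Olr1 in the controls, where Olr1 reached 132 and the lowest Cd36 library was at 125. In the Cre libraries the lowest Cd36 value was 149 and the highest Olr1 value 110.

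**Figure D3:**
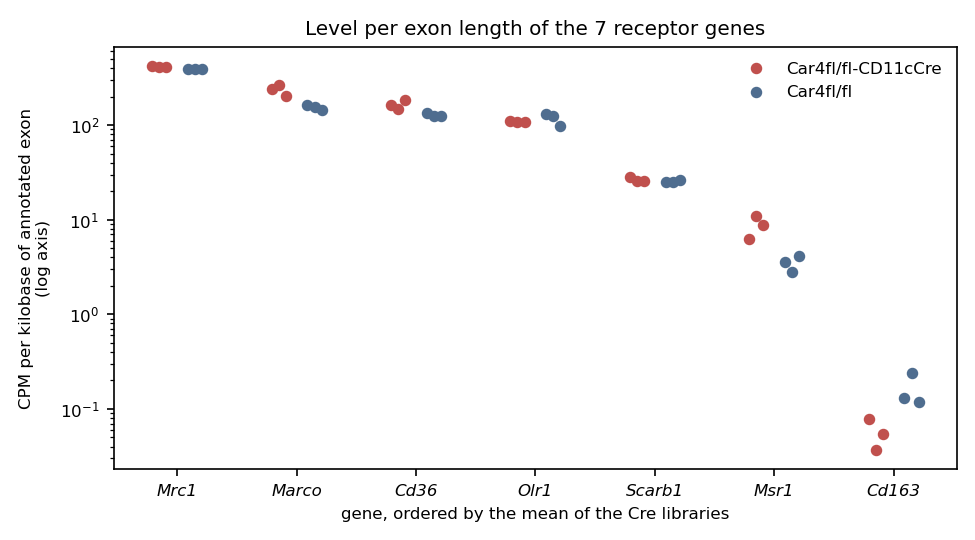
CPM per kilobase of annotated exon (log axis) for each of the 7 genes in the 3 Cre libraries (left, red) and 3 control libraries (right, blue). The order from Mrc1 to Cd163 is the same in both groups, and the levels run from 415 to 0.0562 in the Cre libraries.

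Of the class A genes among the 7 receptors, Marco and Msr1, Msr1 was thus the lower at both genotypes. Its level per exon length was 8.58 in the Cre libraries and 3.5 in the controls, where Marco was at 237 and 154. The length of Msr1 depends on the transcripts counted, and with the longest annotated transcript in place of the union it was at 15 in Cre and 6.11 in control libraries, still between Scarb1 and Cd163.

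To find the genes of closest pattern to each receptor over the 6 libraries, the root mean square difference of log2 CPM was taken. Each gene was centred on its own mean. The search covered 9145 other genes of at least 5 CPM (9146 for Cd163, itself below that level). Predicted genes, antigen receptor segments and pseudogenes had been left out by symbol. Closest to Marco were the laminin chain gene Lamc1 (0.0812), Zcchc11 (0.0818) and Itgax (0.103), the gene of CD11c, whose control element drives the Cre. Itgax was at 2438 ± 123 CPM in the Cre and 1693 ± 195 CPM in the control libraries (SD, n = 3 each). Closest to Msr1 were the mannosidase gene Man1a (0.127), Basp1 (0.168) and Ear6 (0.169), whose reads may be split with near-identical ribonuclease genes. Closest to Cd36 were Trp53inp1 (0.0757), Cttnbp2nl (0.0786) and Focad (0.0919). Closest to Cd163 were Tgfb2 (0.258), Syp (0.288) and Tppp (0.307). The difference scales with a gene's own spread over the libraries, whose root mean square was 0.329 for Marco, 0.694 for Msr1, 0.209 for Cd36, 0.819 for Cd163, 0.0648 for Scarb1, 0.14 for Olr1 and 0.0448 for Mrc1, so values for different receptors are not compared. The closest genes were Sun2, Exd2 and P3h1 for Scarb1 (0.0162 to 0.0198), Smim3, Lrrc40 and Btbd6 for Olr1 (0.0343 to 0.0358) and, among others, Wipi2 and Calcoco1 for Mrc1 (0.0117 and 0.0147).

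Of the other scavenger receptor genes, 18 of 25 listed were tested and none passed. At an unadjusted p under 0.05, 5 were above control (among them Colec12, Cxcl16, Stab1 and Cd163l1) and 1 below (Ager), DESeq2 called 1 higher and none lower, and the median log2 fold change was 0.03. The most abundant were Lrp1, a receptor for many ligands including apolipoprotein E and protease complexes, at 2877 ± 248 CPM in Cre and 3033 ± 434 CPM in control libraries, and Cd44, the hyaluronan receptor, at 2586 ± 41.1 and 2628 ± 125 CPM (SD, n = 3 each). Of the other mannose receptor relatives and endocytic lectins, 12 of 18 were tested and none passed, with 1 above (Mgl2) and 1 below control (Cd209b) at an unadjusted p under 0.05, 1 called higher by DESeq2 (Mgl2) and a median of -0.01. The shares of all tested genes, for this and the other lists, were 6.54% above and 6.28% below at that p, and 2.37% called higher and 1.51% lower by DESeq2, so 1 of 12 each way is near the background. Genes in brackets here and below were chosen after their values were seen. Of these, Cd163l1 had 18, 20 and 23 counts in the Cre libraries and 0, 1 and 7 counts in the controls. Control libraries 1 and 2 were thus below the floor of 3 counts for Cd163l1. Ager is also on the list of epithelial markers, and the part of other cells in its values was not tested. Ly75, the mannose receptor relative DEC-205, was at 568 ± 14.2 CPM in Cre and 528 ± 34.6 CPM in control libraries, and Clec4n, the receptor dectin-2, at 408 ± 42.9 and 446 ± 58.6 CPM.

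Of the co-receptors and signalling partners, 24 of 25 were tested and none passed. None was above control at an unadjusted p under 0.05, 4 were below (among them Tlr2, Fyn and Anxa2), against 6.54% and 6.28% of all tested genes, DESeq2 called 1 lower (Anxa2), against 1.51%, and the median was -0.04. Their most abundant members were the tetraspanin Cd9, at 2998 ± 155 CPM in Cre and 3428 ± 392 CPM in control libraries, and the integrin chain Itgb2, at 2599 ± 277 and 2469 ± 67 CPM. Of the genes that store and export the lipid taken up, 21 of 21 were tested and none passed, with 3 above (Fabp5, Acsl3 and Apoe) and 1 below control (Lpl) at an unadjusted p under 0.05 (6.54% and 6.28% of all tested genes), 1 called higher by DESeq2 (Acsl3; 2.37% of all) and a median of 0.02. Lpl, lipoprotein lipase, was at 3181, 3025 and 2758 CPM in the Cre libraries and 4632, 4024 and 2970 CPM in the controls, and the cholesterol exporter gene Abcg1 was at 2728, 2098 and 2403 CPM and 2828, 2799 and 2540 CPM. Both overlapped between the groups.

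Of the transcription factors known to act on these receptor genes, 22 of 23 were tested and none passed, with 2 above (Maf among them) and 2 below control (Cebpa and Junb) at an unadjusted p under 0.05, 2 called higher by DESeq2 and a median of -0.06. Pparg, which activates Cd36, had values that overlapped between groups (adjusted p 0.727, edgeR quasi-likelihood). The AP-1 genes Fos and Junb, the most abundant of the list, were at 1622 ± 309 and 1154 ± 36.6 CPM in Cre and 1715 ± 330 and 1293 ± 72.1 CPM in control libraries (SD, n = 3 each). Maf was at 1.76, 3.38 and 2.84 CPM in the Cre libraries and 1.03, 1.08 and 1.34 CPM in the controls, and every Cre library was above every control. It is also on the list of interstitial macrophage markers, and DESeq2 called it (adjusted p 0.00357).

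The 17 alveolar macrophage markers all reached 1 CPM in every library. The list holds Marco, the targeted gene Car4, and Itgax, whose control element drives the Cre. The median log2 fold change of the list was -0.06. At an unadjusted p under 0.05, 4 were above control and 6 below (6.54% and 6.28% of all tested genes). Car4 was among those below, and Marco and Itgax were among those above. Car4 was the only marker of the list that edgeR called after adjustment. The summed level of the 17 markers was 29575 to 43193 CPM in the Cre and 24453 to 27993 CPM in the control libraries. It was mostly that of 1 gene, Chil3, at 18927, 27945 and 32961 CPM in the Cre libraries and 14423 to 17834 CPM in the controls. Reads of Chil3 may be split with near-identical copies. The 15 interstitial macrophage markers found in the table summed to 30.8, 66.9 and 106 CPM in Cre libraries 1, 2 and 3 and to 22.8 to 28.4 CPM in the controls, and 3 of them reached 1 CPM in all libraries. None was at 0 in all libraries. Of these 15, 8 were above control at an unadjusted p under 0.05 (6.54% of all tested genes), among them C1qa at 1.88, 12.4 and 18.2 CPM in the Cre libraries and 0.681, 1.01 and 0.722 CPM in the controls, and 1, Cd163 itself, was below (6.28% of all). Lymphoid markers summed to 12, 20.5 and 44.8 CPM in the Cre libraries and to 12 to 13.7 CPM in the controls, with Cre library 1 just below every control and the other Cre libraries above. Monocyte markers summed to 557 to 652 CPM in the Cre libraries and to 670 to 794 CPM in the controls, and endothelial and stromal markers to 185 to 202 and 155 to 164 CPM. Neutrophil and eosinophil markers summed to 65.9 to 70.8 CPM in Cre and 52.6 to 58.8 CPM in control libraries. Dendritic cell markers (27.5 to 36.9 and 26.7 to 37.7 CPM) and epithelial markers (239 to 305 and 269 to 353 CPM) overlapped. In Cre library 1 the interstitial sum was the lowest of the Cre libraries, at 30.8 CPM, and Msr1 was at its lowest Cre value, 39.3 CPM. Marco and Cd36 were there at the middle of their Cre values, 469 and 591 CPM. From Cre library 2 to 3 the interstitial sum went from 66.9 to 106 CPM and Msr1 from 68.6 to 55.4 CPM. Marco went from 505 to 393 CPM and Cd36 from 536 to 667 CPM. The part of other cells in the values of Msr1, Marco and Cd36 was not tested.

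**Figure D4:**
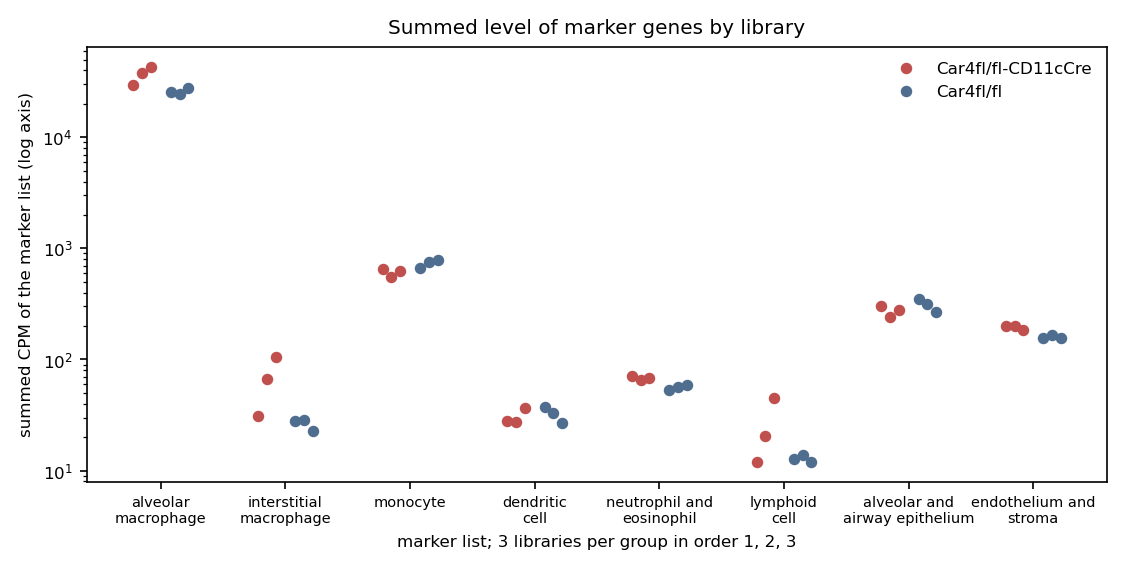
Summed CPM (log axis) of 8 marker lists in Cre libraries 1, 2 and 3 (left, red) and control libraries 1, 2 and 3 (right, blue). The interstitial macrophage sum is 30.8, 66.9 and 106 CPM in the Cre libraries and 22.8 to 28.4 CPM in the controls.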

How the data were processed

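Polyadenylated RNA of 6 sorted alveolar macrophage samples was sequenced, after isolation with the RNeasy Plus Micro kit, per the labels' protocols. The authors deposited unnormalized counts per gene, with 1 column per library. STAR 2.6.1, featureCounts 1.6.4 and the build GRCm38 are among the names in the submitters' processing notes, which give no role for each. Annotation release and strand setting: not given in the sources used here. Columns were assigned through the library names in the labels.

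The test was edgeR 4.0.16 (R 4.3.3) on those counts, with filterByExpr (minimum count 10), TMM, estimateDisp, glmQLFit at its defaults and glmQLFTest, two-sided, Benjamini-Hochberg over 15147 genes, threshold 0.05, no covariate. Standard errors are the absolute log2 fold change over the square root of F, and intervals use the total degrees of freedom of the test. The code was tested on simulated data. Coordinates and exon lengths came from GENCODE M21 (GRCm38), which held 45143 of the 46078 identifiers. Counting intervals and the floor of 3 counts cover counting error only, since PCR copies are not separate molecules. Replicates of a group differed by more than sampling noise (chi-square per degree of freedom 21.9 to 57.5).

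The named genes were the 7 receptors, Car4, the 2 most abundant tested genes of each list without calls, and the 3 genes of most like pattern for each receptor. Some genes that this rule names are not reported here. The members and lists were chosen with earlier results of these data known. Alternatives were other scalings, DESeq2 1.42.0, limma-voom 3.58.1 with and without sample weights, other filters, thresholds of 0.01 and 0.1, robust and non-legacy dispersions, the replicate number as a block, and leaving out each library.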

Additional observations from a re-analysis of the deposited data

How the results depend on the processing

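No receptor changed direction under any of the 19 alternatives run (18 for Cd163, which a filter of 5 CPM in 3 libraries removes). The thresholds of 0.01 and 0.1 reuse the main fit, and robust dispersions gave the same log2 fold changes. Direction could not change in these, and they say nothing about it. Scarb1, Olr1 and Mrc1 were called under none of the alternatives. With DESeq2 the log2 fold changes were 0.63 for Marco, 1.30 for Msr1, 0.38 for Cd36 and -1.53 for Cd163, all called, and without a filter on low counts they were 0.62, 1.29 and 0.37 for Marco, Msr1 and Cd36, all called; the cause was not tested. Over all alternatives the adjusted p ran from 8.7e-08 to 0.468 for Marco, 6.19e-09 to 0.468 for Msr1, 0.00197 to 0.468 for Cd36 and 0.0479 to 0.469 for Cd163. Leaving out single libraries gave 0.54 to 0.72 for Marco, 1.09 to 1.48 for Msr1, 0.29 to 0.44 for Cd36, 0.01 to 0.10 for Scarb1, -0.24 to -0.03 for Olr1, -1.84 to -1.15 for Cd163, 0.07 to 0.09 for Mrc1 and -3.43 to -2.99 for Car4; of the receptors only Msr1 was called, without Cre replicate 1 (1.48). Car4 lost its call with robust dispersions (-3.23, adjusted p 0.0719) and without control replicate 2 (adjusted p 0.0549, edgeR).

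Counts over all genes moved more. Higher calls numbered 345 with DESeq2 and 340 with no filter, and lower calls 219 and 183; robust dispersions gave 1 and 0. Leaving out single libraries gave 1 to 249 higher and 0 to 52 lower, with 249 and 37 without Cre replicate 1, 8 and 1 without Cre replicate 2, 1 and 0 without control replicate 2, and 15 and 52 without control replicate 3. Same-numbered libraries did not deviate together (r -0.0098, -0.156 and 0.0691), so the numbers were not read as pairs; with the replicate number as a block edgeR called 8 genes higher and 2 lower, and no receptor. In the lists of related genes, where none was called, DESeq2 called 1 other scavenger receptor, 1 lectin, 1 lipid gene and 2 factors higher and 1 partner lower, and edgeR with no filter 2 other scavenger receptors, 2 lipid genes and 2 factors higher. Leaving out single libraries gave 0 to 1 other scavenger receptors, 0 to 2 lipid genes and 0 to 2 factors higher. The order of levels per exon length changed for 0 genes with the longest transcript or library-size scaling. Of the 7 receptors Cd163 had the fewest counts, 13 to 78 a library, and counting error weighs most on it.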

Other observations

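Within the other scavenger receptor classes some further values, of genes chosen after they were seen, were as follows; edgeR called none of them. Stab1, a receptor of tissue macrophages, was at 2.51 ± 0.259 CPM in the Cre libraries and 1.33 ± 0.499 CPM in the controls (SD, n = 3 each), with every Cre library above every control. Stab1 is also on the list of interstitial macrophage markers, and the part of other cells in its values was not tested. Cxcl16, the membrane-bound chemokine that also binds oxidised lipoprotein, was at 3.7, 15.2 and 12.5 CPM in the Cre libraries and at 4.73, 3.97 and 2.34 CPM in the controls, so that Cre library 1 lay among the controls. Colec12, a collectin-type class A relative, was at 32.9, 66.3 and 55.6 CPM in the Cre libraries and at 38.8, 33.5 and 24.8 CPM in the controls, again with Cre library 1 among the controls. Cd68, the lysosomal class D member, was at 681, 764 and 706 CPM in the Cre libraries and at 757, 661 and 651 CPM in the controls.

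Among the 15 interstitial macrophage markers, Cd163 was below control while the complement genes C1qa, C1qb and C1qc were above it in all 3 Cre libraries. C1qb was at 1.91, 10.2 and 23.4 CPM in the Cre libraries and at 0.83, 0.948 and 0.739 CPM in the controls, whereas Cd163 was at 0.423, 0.201 and 0.297 CPM in the Cre libraries and at 0.714, 1.3 and 0.651 CPM in the controls. Folr2, another marker of that list, was at 0.101, 0.294 and 0.409 CPM in the Cre libraries and at 0.398, 0.416 and 0.334 CPM in the controls.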
